A study of Saccharomyces cerevisiae with 14 samples.

Results

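The general stress response of budding yeast was followed through 34 genes while a culture growing on a poor nitrogen source received a good one. The genes were listed by name and role, and 34 of 34 were found among the 5449 yeast genes read by the array. Where a gene had several probe sets, the brightest was to be chosen by its mean log2 intensity over the 14 arrays. Each of the 34 genes had exactly 1 probe set, so brightness decided nothing. The list was drawn up with earlier results of these arrays known, and some of its genes were already known to fall strongly. Counts over the list therefore describe these genes and are not independent evidence of a direction.

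The cells were the wild-type strain YSBN6, kept at 30 °C and pH 5 in a batch fermentor, in minimal medium with 20 g/L glucose and 200 mg/L proline. At an OD600 of about 1, glutamine was added at once to 400 mg/L, and all cultures used here received this pulse. The times -10, 7 and 24 min from the pulse had 3 arrays each, 1 from each of the experiments BY003, BY008 and BY012, which the design text calls biological triplicates. BY008 alone was also sampled at 3, 10, 14, 56 and 120 min, once per time. The array taken at -10 min stands for the steady state on proline. No culture without a pulse was used here, so the pulse and the passing of time cannot be told apart.

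When nutrients are scarce, the protein kinase A and TORC1 pathways are less active in yeast, and the zinc finger activators Msn2 and Msn4 enter the nucleus and bind stress response elements. The kinase Rim15 acts in the same state through Igo1, which inhibits a form of protein phosphatase 2A, and through the transcription factor Gis1. Their targets include enzymes that remove peroxides and superoxide, reserve carbohydrate enzymes, chaperones and ubiquitin. Oxidative stress genes are in addition under Yap1 and Skn7. Good nitrogen sources activate TORC1.

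The arrays had median intensities of 159.2 to 278.7, and their number sets how precise a value can be. On the log2 scale the median of all genes shifted by -0.33 at 7 min and by -0.33 at 24 min against -10 min. The -10 min array of BY012 stood apart in the stress genes: all 34 were highest there, by a median of 0.87 over the mean of the other -10 min arrays, against 0.11 for all genes. Results are therefore also given without it. All 34 genes lay above the 95th percentile of probe sets for another yeast on all 14 arrays, but EMI2, XBP1, GND2 and PAI3 came within 0.22, 0.46, 0.49 and 0.70 of it at their lowest. An array averages over the culture, so fewer cells with a transcript and less transcript per cell cannot be told apart.

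By 24 min nearly all of the listed genes had fallen. Of the 34 genes, 33 were lower than at -10 min and 0 were higher, where 44.9% of all genes tested were called lower and 24.1% higher (limma, Benjamini-Hochberg adjusted p under 0.05). At an unadjusted p under 0.05 the counts were also 33 and 0. The shares of all genes depended on the scaling of the arrays. Of 5449 genes, 1938 were lower and 1738 higher once array medians were subtracted, and 1796 and 1804 after quantile normalization. The median change of the 34 was -3.34 on the log2 scale, against -0.33 for all genes. Regulators had a median of -1.85 (6 of 7 lower), antioxidant genes -2.13 (8 of 8 lower) and the other 19 genes -3.73 (19 of 19 lower). The differences between these classes were not tested. Without the -10 min array of BY012, 32 genes were lower (42.9% of all genes) and the median was -2.84. Without BY003 29 were lower (34.2% of all genes). Once array medians were subtracted 31 were lower (35.6% of all genes), and after quantile normalization 32 (33.0% of all genes).

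At 7 min fewer of them were called lower. There 18 of 34 genes were lower and 0 higher, where 35.7% of all genes were called lower and 16.7% higher (limma). At an unadjusted p under 0.05 the counts were 19 and 0. The fitted change was nevertheless below 0 for 33 of the 34, and 33 were lower in all 3 experiments. These counts were not taken over all genes. A gene that was not called is thus not shown to be unchanged at 7 min. The median was -0.88, against -0.33 for all genes. Of the regulators 5 of 7 were lower, of the antioxidant genes 3 of 8 and of the other genes 10 of 19. The count was 15 without the -10 min array of BY012 (30.4% of all genes) and 22 with experiment as a block (42.6%). It was 9 once BY003 was left out (15.4%). From 7 to 24 min, 24 genes fell further and 1 rose, where 20.2% of all genes fell and 13.2% rose over that interval. Without BY003 the 24 became 13 and the 1 became 0, and over all genes the share lower went from 20.2% to 5.6% (at 7 min from 35.7% to 15.4%). Without BY008 the 1 became 0 as well.

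**Figure D1:**
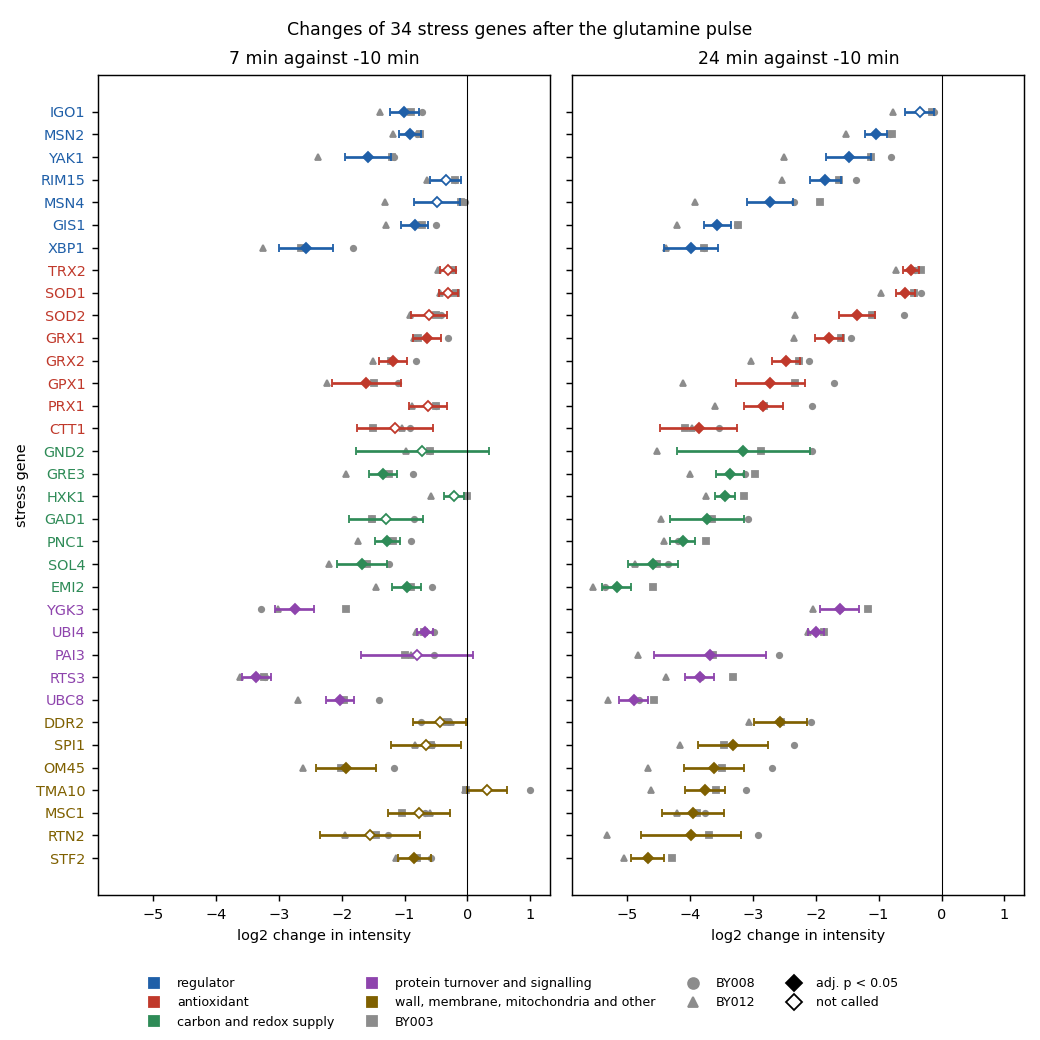
Log2 change in intensity of each of the 34 stress genes at 7 min (left) and 24 min (right) against -10 min, where diamonds with bars give the fitted change with its standard error (3 arrays per time), filled where adjusted p was under 0.05, and grey marks give the change within each experiment. At 24 min all 34 fitted changes lie below 0 and 33 are called, whereas at 7 min 18 are called and TMA10 alone lies above 0 (at -0.03 without BY008).

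Of the 7 regulators, the activator genes are described first. MSN2 stood at log2 intensities of 11.58, 11.57 and 12.17 at -10 min (in the order BY003, BY008 and BY012, kept throughout), at 10.83, 10.77 and 10.99 at 7 min and at 10.80, 10.75 and 10.64 at 24 min. Its 7 and 24 min arrays all lay below those before the pulse and close to each other. It fell by 7 min (-0.91 ± 0.18 on the log2 scale, with the standard error over 3 arrays a time, limma adjusted p = 0.00251) and showed no further change that passed the test (-0.13, 95% interval -0.53 to 0.27). MSN4 stood at 10.61, 10.83 and 12.21 before the pulse, at 10.51, 10.79 and 10.91 at 7 min and at 8.68, 8.49 and 8.30 at 24 min. At 7 min its arrays overlapped with those before the pulse, and at 24 min they lay clearly lower. MSN4 was at -0.48 ± 0.36 at 7 min (adjusted p = 0.278, and at 0.02 without the -10 min array of BY012) and fell 6.64-fold by 24 min (-2.73 ± 0.36, adjusted p = 0.000128).

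GIS1, for the transcription factor downstream of Rim15, kept falling. Its values were 11.94, 11.87 and 12.70 at -10 min, 11.21, 11.36 and 11.41 at 7 min and 8.71, 8.61 and 8.49 at 24 min. No array of 1 time overlapped with another time. The change was -0.84 ± 0.21 at 7 min (adjusted p = 0.00978, and 0.0768 without BY003) and -3.57 ± 0.21 at 24 min, an 11.8-fold fall (adjusted p = 2.22e-06). RIM15, for the kinase, was late as well: it was at -0.35 ± 0.25 at 7 min (adjusted p = 0.252) and fell by 24 min (-1.85 ± 0.25, adjusted p = 0.000137). XBP1 encodes a repressor that is made under stress. It stood at 11.32, 10.74 and 12.47 before the pulse, 8.67, 8.92 and 9.23 at 7 min and 7.54, 6.96 and 8.09 at 24 min. The 3 times did not overlap, and most of the fall had come by 7 min (-2.57 ± 0.43, adjusted p = 0.00108, against -3.98 ± 0.43 at 24 min). The further fall from 7 to 24 min (-1.41 ± 0.43, adjusted p = 0.0313) lost its call without BY003 (0.182), without BY008 (0.103) and after quantile normalization (0.127).

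YAK1 and IGO1 fell early and did not fall further. YAK1, for a kinase that opposes growth under protein kinase A, stood at 11.98, 11.53 and 13.21 at -10 min and at 10.79, 10.36 and 10.83 at 7 min. At 24 min it stood at 10.86, 10.74 and 10.69, below all arrays before the pulse as at 7 min. The fall was -1.58 ± 0.36 at 7 min (adjusted p = 0.00575, and 0.0527 without BY003) and -1.48 ± 0.36 at 24 min (adjusted p = 0.00503). IGO1, for the phosphatase inhibitor, stood at 13.13, 12.67 and 13.59 before the pulse, at 12.23, 11.95 and 12.20 at 7 min and at 12.98, 12.55 and 12.81 at 24 min. In each experiment its 7 min array was the lowest of the 3 times. It was lower at 7 min (-1.004 ± 0.23, adjusted p = 0.00595, and 0.0672 without BY003). At 24 min it was the 1 gene of the 34 that was not called (-0.35, 95% interval -0.87 to 0.17, adjusted p = 0.202). Its change of 0.65 ± 0.23 from 7 to 24 min did not pass the test (adjusted p = 0.0550). With experiment as a block it did (0.0171), as it did after subtraction of array medians (0.0227), after quantile normalization (0.0421) and without the -10 min array of BY012 (0.0206).

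The antioxidant genes spanned a wide range of falls. CTT1, for cytosolic catalase, stood at 13.83, 12.48 and 14.46 at -10 min, at 12.33, 11.56 and 13.43 at 7 min and at 9.75, 8.93 and 10.50 at 24 min. Within each experiment the values went down at both steps, while the experiments differed by as much as 1.99 before the pulse. CTT1 was at -1.15 ± 0.61 at 7 min (adjusted p = 0.137), a change that was called with experiment as a block (0.000746). By 24 min it had fallen 14.5-fold (-3.86 ± 0.61, adjusted p = 0.000393). The mitochondrial peroxiredoxin gene PRX1 was at -0.63 ± 0.30 at 7 min (adjusted p = 0.108) and fell 7.12-fold by 24 min (-2.83 ± 0.30, adjusted p = 3.59e-05). GPX1, for a glutathione peroxidase, stood at 10.55, 9.74 and 12.18, then at 9.07, 8.63 and 9.95, then at 8.22, 8.02 and 8.06. Its experiments were far apart at -10 min and close together at 24 min. It fell at both times (-1.61 ± 0.55, adjusted p = 0.0333, and -2.72 ± 0.55, adjusted p = 0.00169), and the 7 min call was lost after subtraction of array medians (adjusted p = 0.0524), after quantile normalization (0.0677), without BY003 (0.159) and without the -10 min array of BY012 (0.0785).

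The glutaredoxin genes fell in steps. GRX2 stood at 13.57, 13.07 and 13.96 at -10 min, 12.35, 12.24 and 12.45 at 7 min and 11.30, 10.96 and 10.93 at 24 min, with no overlap between times. Its change was -1.18 ± 0.22 at 7 min (adjusted p = 0.00200) and -2.47 ± 0.22 at 24 min (adjusted p = 1.24e-05). GRX1 changed by -0.64 ± 0.22 at 7 min (adjusted p = 0.0326, lost in 4 of 10 alternatives) and by -1.79 ± 0.22 at 24 min (adjusted p = 7.37e-05). The smallest falls were those of the superoxide dismutase and thioredoxin genes. SOD2, for the mitochondrial manganese enzyme, fell 2.54-fold by 24 min (-1.35 ± 0.28, adjusted p = 0.00225). SOD1, for the copper-zinc enzyme, stood at 14.47, 14.41 and 14.75 at -10 min and at 14.03, 14.09 and 13.78 at 24 min. TRX2, for a cytosolic thioredoxin, stood at 14.19, 14.20 and 14.30 and then at 13.87, 13.78 and 13.58. Neither gene overlapped between these times, and the median gene shifted by -0.33 over the same interval. SOD1 was at -0.57 ± 0.15 (adjusted p = 0.00685) and TRX2 at -0.49 ± 0.13 (adjusted p = 0.00745), and both calls ended once array medians were subtracted (adjusted p = 0.0677 and 0.147) or BY003 was left out (0.0682 and 0.0654). Both started near the highest value of any probe set, 15.14. Whether compression plays a part was not tested. The polyubiquitin gene UBI4 started at 14.11, 14.13 and 14.30 and reached 12.24, 12.12 and 12.17 (-2.002 ± 0.13, adjusted p = 2.52e-06).

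Genes for sugar phosphorylation, the pentose phosphate pathway and related enzymes had a median of -3.73 at 24 min, with 7 of 7 lower. Of all genes 44.9% were lower at that time, with a median of -0.33. EMI2, related to glucokinase, stood at 11.83, 12.08 and 12.29 at -10 min, at 10.93, 11.53 and 10.83 at 7 min and at 7.24, 6.72 and 6.74 at 24 min. The 24 min arrays were far below all others, close to the level of probe sets for another yeast. EMI2 fell 35.9-fold by 24 min (-5.17 ± 0.23, adjusted p = 1.25e-06), of which only a small part had come by 7 min (-0.97 ± 0.23, adjusted p = 0.00674, and 0.0772 without BY012). HXK1, for a hexokinase, stood at 13.41, 13.64 and 13.95 and then, at 7 min, at 13.40, 13.61 and 13.38, which overlap. By 24 min it stood at 10.27, 10.18 and 10.21. Its whole called change lay after 7 min: -0.21 ± 0.16 by then (adjusted p = 0.289) and -3.24 ± 0.16 from 7 to 24 min (adjusted p = 8.76e-06). SOL4, for a 6-phosphogluconolactonase, fell 24.0-fold (-4.59 ± 0.40, adjusted p = 1.08e-05) and PNC1, for nicotinamidase, 17.4-fold (-4.12 ± 0.20, adjusted p = 1.25e-06).

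Of the same class, GRE3, for an aldose reductase, fell at 7 min (-1.34 ± 0.23, adjusted p = 0.00129) and further by 24 min (-3.36 ± 0.23). GAD1, for glutamate decarboxylase, was at -1.29 ± 0.59 at 7 min (adjusted p = 0.0915; the blocked fit gave 0.00331) and fell 13.2-fold by 24 min (-3.73 ± 0.59, adjusted p = 0.000397). GND2, for the minor 6-phosphogluconate dehydrogenase, had the widest spread of the 34. It stood at 11.04, 9.69 and 13.61 at -10 min, at 10.45, 9.10 and 12.63 at 7 min and at 8.17, 7.63 and 9.08 at 24 min. It went down at both steps in each experiment, and at 24 min the highest array nearly met the lowest of the earlier times. GND2 was at -3.15 ± 1.05 at 24 min (adjusted p = 0.0233), a call lost without the -10 min array of BY012 (-2.07, adjusted p = 0.0881), without BY003 (0.118) and after quantile normalization (0.0585). At 7 min it was at -0.72 ± 1.05 (adjusted p = 0.578), and at 0.36 without the -10 min array of BY012. Its change from 7 to 24 min (-2.43 ± 1.05, adjusted p = 0.105) was called with experiment as a block (0.00339).

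Genes for protein turnover and signalling included the fastest falls. RTS3, for a putative part of protein phosphatase 2A, stood at 12.93, 13.17 and 13.81 before the pulse, at 9.70, 9.95 and 10.19 at 7 min and at 9.61, 9.34 and 9.42 at 24 min. Nearly all of its change lay within the first 7 min (-3.36 ± 0.23, adjusted p = 1.30e-05), with -0.49 ± 0.23 after that (adjusted p = 0.134, and 0.0403 without the -10 min array of BY012). YGK3, for a kinase of the GSK-3 family, was the 1 gene that rose from 7 to 24 min. It stood at 11.73, 12.37 and 12.93, then at 9.79, 9.08 and 9.91, then at 10.55, 10.75 and 10.88. The 7 min arrays were the lowest in all 3 experiments, and the 24 min arrays lay between the other times without overlap. It fell 6.72-fold by 7 min (-2.75 ± 0.31, adjusted p = 0.000133) and came back by 1.13 ± 0.31 (adjusted p = 0.0218, and 0.0741 without BY003 or 0.156 without BY008).

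UBC8, for the ubiquitin-conjugating enzyme of gluconeogenic fructose-1,6-bisphosphatase, stood at 12.66, 12.70 and 13.16, then at 10.69, 11.29 and 10.46, then at 8.08, 7.89 and 7.85. It fell at both steps, by -2.02 ± 0.23 and by a further -2.87 ± 0.23, to a 29.8-fold fall at 24 min (adjusted p = 1.25e-06). UBI4 changed by -0.68 ± 0.13 at 7 min (adjusted p = 0.00189, and 0.0609 without BY003). PAI3, for the inhibitor of proteinase A, the vacuolar protease, stood at 12.08, 10.45 and 13.83 at -10 min and at 8.45, 7.87 and 9.003 at 24 min. The experiments differed by 3.38 before the pulse, and each was lower at 24 min. Its change was -0.81 ± 0.89 at 7 min (adjusted p = 0.460, and 0.05 on the log2 scale without the -10 min array of BY012) and -3.68 ± 0.89 at 24 min (adjusted p = 0.00485, and 0.0557 without BY003).

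The 7 remaining genes, for the wall, membranes, mitochondria and stress proteins of less certain role, were called mostly after 7 min. At 7 min 2 of 7 were lower (35.7% of all genes), or 4 of 7 with experiment as a block (42.6% of all genes in that fit). At 24 min 7 of 7 were lower (44.9% of all genes). All 7 fell from 7 to 24 min (20.2% of all genes), 3 of them still called without BY003 (5.6% of all genes). TMA10, for a ribosome-associated protein, stood at 12.79, 12.65 and 13.68 at -10 min, at 12.77, 13.64 and 13.64 at 7 min and at 9.21, 9.54 and 9.07 at 24 min. Only in BY008 was the 7 min array above that experiment's -10 min array. TMA10 was the 1 gene of the 34 with a positive estimate at 7 min (0.31 ± 0.32, adjusted p = 0.425, and -0.03 without BY008), and it fell 16.9-fold from 7 to 24 min (-4.08 ± 0.32, adjusted p = 4.08e-05). STF2, a related gene whose product acts with the mitochondrial ATP synthase, fell 25.6-fold by 24 min (-4.68 ± 0.27, adjusted p = 1.96e-06) and was lower by 7 min (-0.84 ± 0.27, adjusted p = 0.0257, lost in 4 of 10 alternatives). OM45, for a protein of the mitochondrial outer membrane, was the other gene of this class that was lower by 7 min (-1.93 ± 0.48, adjusted p = 0.00847, and 0.0942 without BY003).

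The wall protein gene SPI1 was at -0.66 ± 0.55 at 7 min (adjusted p = 0.326) and fell by 24 min (-3.32 ± 0.55, adjusted p = 0.000532). DDR2, a gene induced by many stresses, was at -0.44 ± 0.42 at 7 min (adjusted p = 0.384) and fell 5.91-fold by 24 min (-2.56 ± 0.42, adjusted p = 0.000464). MSC1, whose molecular role is not well known, was at -0.77 ± 0.49 (adjusted p = 0.208; the blocked fit gave 0.00574) and then fell 15.5-fold (-3.95 ± 0.49, adjusted p = 8.65e-05). RTN2, for a reticulon of the endoplasmic reticulum, was at -1.56 ± 0.79 (adjusted p = 0.124; the blocked fit gave 0.0111) and then fell 15.8-fold (-3.98 ± 0.79, adjusted p = 0.00161).

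The BY008 series, with 1 array per time and so without a test, shows the order in finer steps. At 3 min 0 of the 34 genes were lower by 1 or more on the log2 scale, where 0.184% of all genes were. The nearest were YGK3 at -0.93 and RTS3 at -0.90, while TMA10 stood at 0.71. At 10 min 20 of 34 were lower by that much (19.4% of all genes) and at 14 min 28 of 34 (22.9% of all genes). Once array medians were subtracted, the counts at 10 and 14 min were 14 and 22. The shares of all genes after that step are not given here, so these counts cannot be read against 19.4% and 22.9%. RTS3 stood at -3.22 at 7 min, -3.37 at 10 min and -3.54 at 14 min. EMI2 in contrast stood at -0.56, -1.02 and -2.90 at these times before -5.36 at 24 min, and HXK1 at -0.03, -0.32, -1.83 and -3.46. EMI2 and HXK1 thus covered most of their distance between 10 and 24 min in this experiment.

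Later, most of the genes stood higher again without reaching the level on proline. In BY008 21 of the 34 genes had their lowest array at 24 min, 3 at 56 min and 3 at 120 min. The time of the lowest array was not counted over all genes, so these counts have no share to be read against. At 56 min 23 of 34 were lower than at -10 min by 1 or more on the log2 scale (17.6% of all genes), and at 120 min 24 of 34 (12.2% of all genes). Against -10 min the median of the 34 was -2.46 at 24 min, then -1.88 at 56 min, and by 120 min -1.38. From 24 to 120 min 28 genes stood higher, a count that was not taken over all genes. By at least 1 on the log2 scale 17 stood higher, as did 12.2% of all genes. The median of the 34 over that interval was 0.99, against 0.05 for all genes. EMI2 regained the most, 4.29, and ended at -1.07, PNC1 regained 3.18 and STF2 3.04. PAI3, TMA10, CTT1 and RTS3 ended lowest, at -2.90, -2.98, -2.75 and -2.55. Of the regulators, IGO1 was at 0.01 at 120 min, MSN4 at -0.56, YAK1 at -0.57 and XBP1 at -1.88.

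**Figure D2:**
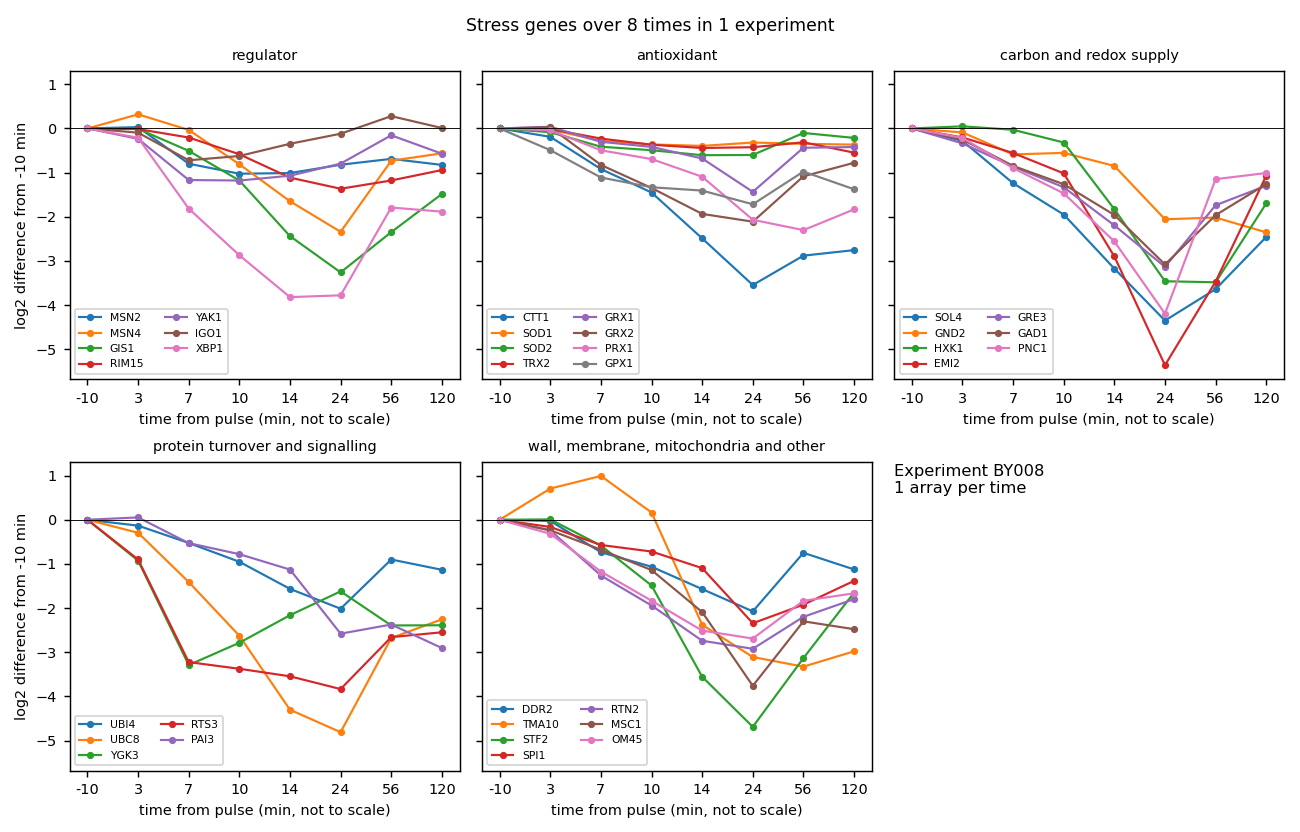
Log2 difference in intensity from the -10 min array of experiment BY008 (y axis) for the 34 stress genes at 8 times (x axis in min, evenly spaced and not to scale), 1 array per time and no error bars. RTS3 and YGK3 are near their low by 7 min, EMI2 and STF2 reach theirs at 24 min, and the series of 120 min lies below 0 for all genes but IGO1.

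The starting level of the stress genes differed between experiments, and in the median these differences were smaller after the pulse. At -10 min the median range over the 3 experiments was 1.04 on the log2 scale for the 34 genes and 0.50 for all genes. At 24 min it was 0.38 and 0.32. Before the pulse 26 of the 34 genes stood in the order BY008, BY003, BY012 from low to high, as did 1544 of all 5449 genes. At 7 min 21 of the 34 still did, against 1662 of 5449, and at 24 min 9 of the 34, against 1102 of 5449. The widest ranges before the pulse were those of GND2 (3.92), PAI3 (3.38), RTN2 (3.18) and GPX1 (2.44), and at 24 min the widest of the 34 was 1.56. At 24 min GND2, PAI3, RTN2 and GPX1 had mean log2 intensities of 8.29, 8.44, 8.11 and 8.10. The 95th percentile of probe sets for another yeast lay between 6.30 and 6.53 on the 24 min arrays. Whether low intensity narrowed the ranges of these genes was not tested. The median fall by 24 min was 3.06 in BY003, 2.46 in BY008 and 4.06 in BY012. The experiments were not randomised to a condition, and what set their starting levels was not tested.

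**Figure D3:**
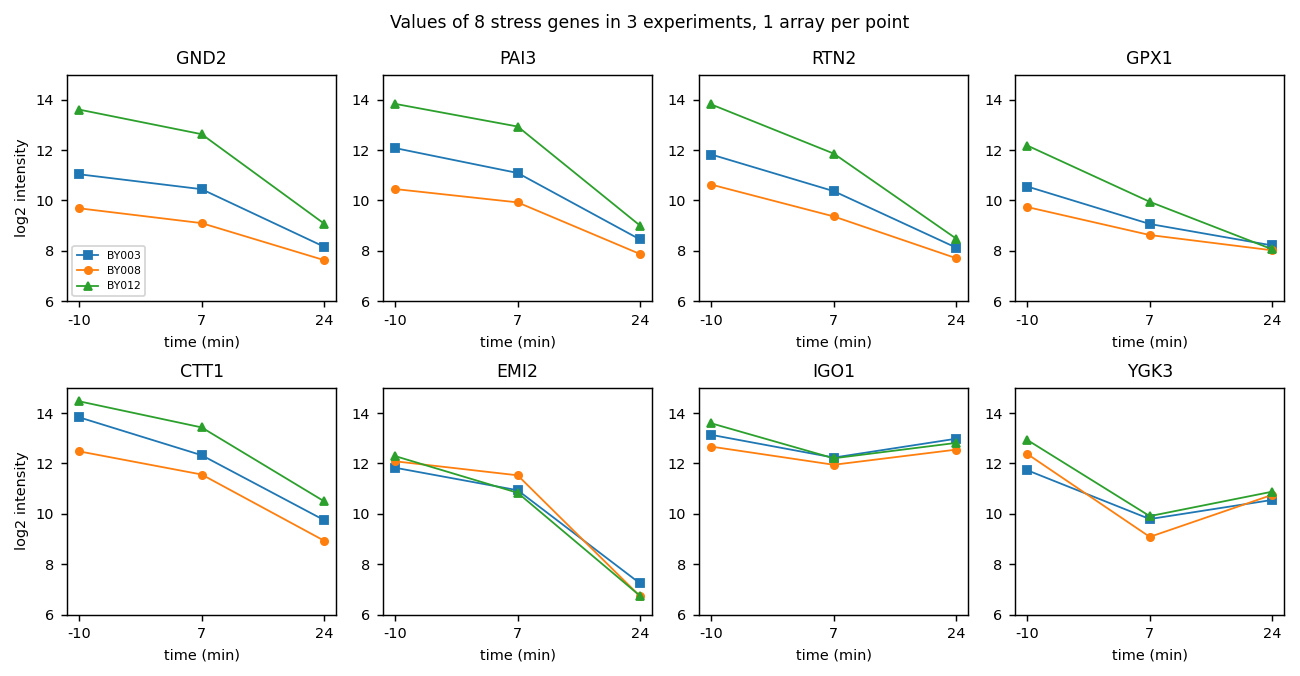
Log2 intensity (y axis) of 8 stress genes at -10, 7 and 24 min (x axis) in the 3 experiments, 1 array per point. GND2, PAI3, RTN2 and GPX1 start farther apart than they end, with ranges of 1.45, 1.13, 0.78 and 0.19 at 24 min, EMI2 starts close together, and IGO1 and YGK3 are lowest at 7 min in each experiment.

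Many of the 34 genes have a relative of the same protein family, and 18 such pairs were compared. In 15 of them the relative was a gene outside the list. Of these 15 relatives 7 were lower at 24 min, 2 higher and 6 not called, where 44.9% of all genes were lower. In 13 of the 15 pairs the stress gene fell more than its relative in all 3 experiments. The 34 genes were listed with earlier results known, some of them as strong falls. This count and the tests of pairs below are therefore description and not independent evidence of a divergence. SOL4 changed by -4.59, whereas SOL3, for the other lactonase of the pathway, rose (0.71 ± 0.21, adjusted p = 0.0132, lost without BY003 at 0.0502 and without BY008 at 0.0517). GND2 changed by -3.15, whereas GND1, for the major dehydrogenase, rose (0.75 ± 0.19, adjusted p = 0.00603). The difference in change between gene and relative was -5.01, -5.41 and -5.47 for the lactonases and -3.34, -2.81 and -5.56 for the dehydrogenases. An exact two-sided permutation test compared gene minus relative on the 3 arrays at 24 min with the 3 at -10 min. It did not pair arrays by experiment. That permutation test gave p = 0.1 for each of these pairs, the smallest that 3 against 3 arrays can give, and 0.12 adjusted over the 18 pairs.

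Other pairs diverged without a rise of the relative. CTA1, for the peroxisomal catalase, was at -0.42 ± 0.38 beside -3.86 for CTT1, and TSA1, for the main cytosolic peroxiredoxin, at -0.31 ± 0.13 beside -2.83 for PRX1. RTN1 was at -0.01 ± 0.17 beside -3.98 for RTN2, and SED1, for a wall protein, at 0.02 ± 0.32 beside -3.32 for SPI1. RPH1 was at 0.34 ± 0.41 beside -3.57 for GIS1, and RPL40A, for a ubiquitin fused to a ribosomal protein, at 0.21 ± 0.13 beside -2.002 for UBI4. These 6 relatives were not called, but TSA1 was called lower after quantile normalization and with trend and robust moderation, and RPL40A was called higher once array medians were subtracted. RPH1 was called higher without BY012 or its -10 min array and was at -0.27 without BY008. The sign of CTA1, RTN1 and SED1 also turned in some alternatives, without a call. HXK2 fell (-0.87 ± 0.26, lost after subtraction of array medians, adjusted p = 0.0767, or without BY003, 0.0649) beside -3.45 for HXK1, and HOR7 fell (-0.89 ± 0.15) beside -2.56 for DDR2. HOR7 started at 14.99, 15.01 and 15.04, near the highest value of any probe set, 15.14. TSA1 started at 14.44, 14.53 and 14.53 and RPL40A at 14.41, 14.39 and 14.13. Whether compression plays a part for these relatives was not tested. CTA1 in contrast started low, at 7.0, 7.41 and 8.35. The 95th percentile of probe sets for another yeast was 6.11, taken on mean log2 intensities. A fall as large as that of CTT1 would have taken CTA1 below that level. Whether the low start limited the fall of CTA1 was not tested.

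In the remaining pairs both genes fell or the relative fell more. GLK1, for glucokinase, fell (-3.504 ± 0.19, adjusted p = 1.80e-06) beside -5.17 for EMI2. HYR1 fell (-2.09 ± 0.22) beside -2.72 for GPX1 and MCK1 (-1.03 ± 0.22) beside -1.62 for YGK3, with exact permutation p = 0.4 and 0.3 for the differences. TRX1 fell (-0.97 ± 0.28, adjusted p = 0.0120, and 0.0749 without BY003) beside -0.49 for TRX2 (exact permutation p = 0.3 for the difference). IGO2 fell (-1.52 ± 0.23, adjusted p = 0.000289), where IGO1 was not called, and the difference was 0.84, 1.498 and 1.17 in the 3 experiments (exact permutation p = 0.1, adjusted 0.12). MSN4 fell more than MSN2 in each experiment, by 1.16, 1.52 and 2.39 (exact permutation p = 0.1, adjusted 0.12). GRX2 fell more than GRX1 and STF2 more than TMA10 in each experiment, by means of 0.68 and 0.91 (exact permutation p = 0.1 for both). Whether a probe set also binds RNA of the relative was not tested.

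**Figure D4:**
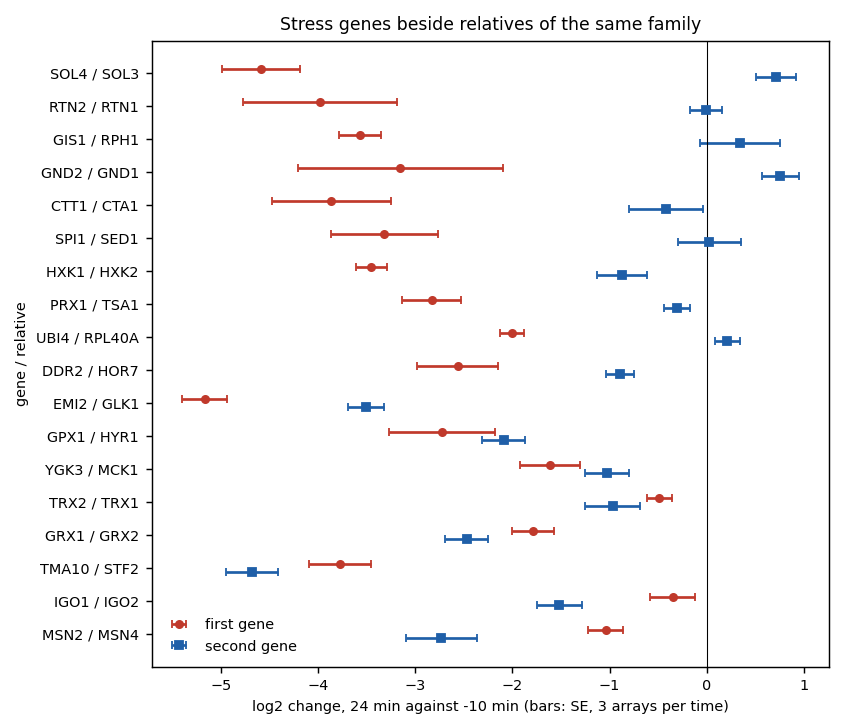
Log2 change in intensity from -10 to 24 min (x axis) of a stress gene (red circles) and a relative of the same family (blue squares) in 18 pairs, with standard errors from 3 arrays per time. The relatives SOL3 and GND1 lie above 0 at 0.71 and 0.75 while SOL4 and GND2 lie at -4.59 and -3.15, and MSN4 and IGO2 lie below MSN2 and IGO1.

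Other genes of the pathway, listed by role with earlier results known, moved with the 34 to different extents. Among general stress genes outside the 34 (heat shock proteins, trehalose and glycogen enzymes and others), 38 of 39 were lower at 24 min and 0 higher, with a median of -3.20, where 44.9% of all genes were lower and 24.1% higher. CYC7, for a minor cytochrome c, changed by -5.73 ± 0.35 and GPH1, for glycogen phosphorylase, by -4.28 ± 0.53. Among the antioxidant genes outside the 34, 15 of 26 were lower and 4 higher, with a median of -0.81, against the same shares of 44.9% and 24.1%. HYR1 and GTT1, for a glutathione transferase, were the largest falls (-2.09 ± 0.22 and -2.05 ± 0.32). GPX2, for another glutathione peroxidase, rose (1.77 ± 0.20, adjusted p = 5.03e-05), as did SRX1, for sulfiredoxin (1.36 ± 0.50, adjusted p = 0.0358, lost without BY003 at 0.175 and without BY008 at 0.0909).

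Of the signalling and stress regulators outside the 34, 18 of 30 were lower at 24 min and 5 higher (44.9% and 24.1% of all genes), with a median of -0.94. TPK2, for a catalytic subunit of protein kinase A, fell at 7 min (-2.05 ± 0.25) and further by 24 min (-3.55 ± 0.25, adjusted p = 4.41e-06), and so did RIM11, for a kinase of the GSK-3 family (-1.91 ± 0.22 and -2.77 ± 0.22). PDE2, for the phosphodiesterase that breaks down cyclic AMP, rose (1.64 ± 0.14, adjusted p = 8.92e-06), and so did RAS1, for a GTPase upstream of adenylate cyclase (1.51 ± 0.28, adjusted p = 0.00113). Both had already risen at 7 min, by 1.78 ± 0.14 and 2.04 ± 0.28. At 7 min the medians of these lists were -0.99 for the general stress genes (22 of 39 lower and 1 higher), -0.30 for the antioxidant genes (4 of 26 and 2) and -0.44 for the regulators (15 of 30 and 6). Of all genes 35.7% were lower and 16.7% higher at that time, with a median of -0.33.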

How the data were processed

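RNA was measured on 14 Affymetrix arrays of 1 yeast strain. The authors deposited linear intensity values, 1 column per array, for 10928 probe sets; the submitters' processing notes name affy, RMA and R 2.10.0, and how they were set is not given in the sources used here. The supplied annotation pairs 5498 probe sets with a yeast gene and 1747 with another yeast. Intensities were turned into log2 and nothing else. Across all 5449 genes limma 3.58.1 (R 4.3.3) fitted 1 mean per time to all 14 arrays, with Benjamini-Hochberg adjustment over all genes. Errors beside log2 changes are standard errors of that fit (6 residual and 3.31 prior degrees of freedom), and ranges are 95% intervals. The fit was tested on simulated data. Permutation tests used scipy 1.17.1.

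Genes named were all 34 listed, their relatives, and of each further list the 2 largest called rises and falls at 24 min. Members and lists were chosen with earlier results of these data known. Labels give the arrays experiment codes; deviations from time means correlated within experiments with r from -0.054 to 0.635, and experiment as a replicate block is an alternative. Sequences were not analysed here.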

Additional observations from a re-analysis of the deposited data

How the results depend on the processing

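Of 1260 gene values recomputed under 10 alternatives, 1176 kept their direction and call, 52 lost the call, 19 gained one and 13 turned in sign, of which 0 were called in either fit. The alternatives were subtraction of array medians, quantile normalization, experiment as a replicate block, leaving out each experiment, leaving out the -10 min array of BY012, leaving out dim genes, trend and robust moderation, and the mean over probe sets; counts were also taken at a stricter threshold of 0.01. For relatives and genes of the further lists they were added after seeing the data. Left-out experiments gave between 9 and 18 stress genes lower at 7 min and between 29 and 33 lower at 24 min. From 7 to 24 min they gave between 13 and 24 falling and between 0 and 1 rising (0 without BY003 and without BY008). The lower ends of the other ranges came without BY003, where the shares of all genes called were lower too; the cause was not tested. The count rising from 7 to 24 min was 2 after subtraction of array medians, after quantile normalization, with the replicate block and without the -10 min array of BY012, IGO1 joining YGK3, and 0 at the threshold of 0.01. With the replicate block 22, 33 and 25 genes were lower at 7 min, at 24 min and from 7 to 24 min, against 18, 33 and 24 without it. Of all genes 42.6%, 47.4% and 24.8% were lower with the block, against 35.7%, 44.9% and 20.2% without it. Once array medians were subtracted, the genes lower by 1 or more in BY008 numbered 1, 14, 22, 22 and 22 at 3, 10, 14, 56 and 120 min. Without that step they numbered 0, 20, 28, 23 and 24. The shares of all genes after that step are not given here. GRX1 at 7 min lost its call after subtraction of array medians and without BY003, BY012 or its -10 min array, as did STF2. With 3 arrays per time, a change is called only where it is large beside the spread between experiments. The turned signs at 7 min were those of MSN4 (0.017), GND2 (0.36) and PAI3 (0.051) without the -10 min array of BY012, and of TMA10, which ranged from -0.031 without BY008 to 0.49 without BY012. At 24 min they were those of RTN1 after subtraction of array medians (0.27) and quantile normalization (0.099) and of CTA1 after quantile normalization (0.43). With single experiments left out, RTN1 ranged from -0.0397 to 0.0159, CTA1 from -0.70 to 0.044, SED1 from -0.27 to 0.53 and RPH1 from -0.27 to 0.96. From 7 to 24 min YAK1 ranged from -0.030 to 0.22.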
